A study of Mus musculus with 8 samples.

Results

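The mitochondrially encoded genes are the genes of the mouse mitochondrial chromosome, taken here as every row of the count table whose gene name starts with mt-. There were 37 such rows among 48440 genes: 13 protein-coding genes, 2 ribosomal RNAs and 22 transfer RNAs. Their RNA was measured by sequencing in mouse embryonic stem cells, pluripotent cells labelled as of blastocyst stage and 129/Ola background, in 4 groups of 2 libraries. The groups were β-catenin knock-out cells (CTNNB1-/-) with the inhibitor CHIR99021 at 3 μM, the same knock-out cells with the vehicle DMSO at 0.3 μl/ml, parental cells (CTNNB1+/+) with CHIR99021, and parental cells with DMSO. Treatment lasted 72 hours in all groups, and the cells grew on gelatin in medium with serum, with no feeder layer. CHIR99021 blocks GSK3, the kinase that marks β-catenin for destruction, and the design asks what this does with and without β-catenin. Each genotype is 1 line, so genotype and line cannot be told apart. Nothing in the labels says that replicates came from separate cultures, and p-values then measure only how far these libraries vary, a spread that may be technical.

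Mitochondrial DNA is a small circle that is transcribed from both strands into long precursors by the polymerase POLRMT with the DNA-packing factor TFAM. Transfer RNAs sit between most of the other genes and are cut out, which frees the messengers, and the enzyme MTPAP then adds their poly(A) tails. The 13 proteins are subunits of the respiratory chain: the Nd genes of complex I, Cytb of complex III, the Co genes of complex IV (cytochrome c oxidase) and the Atp genes of complex V (ATP synthase), and the other subunits of these complexes come from nuclear genes. In bulk RNA more mitochondrial RNA per cell and more cells rich in it cannot be told apart.

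The gene order bears on how these counts can be read, because several genes share bases or lack a complete stop codon of their own. Coordinates are those of the mitochondrial chromosome in GRCm38, and sequences are from the GENCODE M21 transcripts. The 13 protein-coding genes are 204 to 1824 bases long, and mt-Nd6 (13552 to 14070) is the 1 of them on the minus strand; their reading frames start with ATG in 9 genes, and end in TAA in 8, in TAG in 2 and in a bare T in 3. Those 3 genes, mt-Co3, mt-Nd4 and mt-Cytb, are shown at their 3′ ends, where the capital marks the last base of the gene; this T is the start of a stop codon that the poly(A) tail completes.
mt-Co3, chrM:9373-9402, plus strand: tttattgatgaggatctTactcccttagta
mt-Nd4, chrM:11527-11544, plus strand: ttacaggcctgacaataT
mt-Cytb, chrM:15271-15300, plus strand: tactaaaattatatccaTgtcttgatagta

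There are also 3 places where a pair of protein-coding genes overlaps by more than 1 base, and reads from the shared bases, in capitals, could belong to either gene. In the first, capitals open with the start codon of mt-Atp6 and close with the stop codon of mt-Atp8 (43 shared bases). The second holds the start of mt-Nd4 and the stop of mt-Nd4l (7 bases), and the third holds the stop codons of mt-Nd5 and of mt-Nd6, which run on opposite strands (14 bases). The pairs mt-Atp8 and mt-Atp6, and mt-Nd4l and mt-Nd4, are each carried on a shared messenger.
mt-Atp8 and mt-Atp6, chrM:7915-7981, plus strand: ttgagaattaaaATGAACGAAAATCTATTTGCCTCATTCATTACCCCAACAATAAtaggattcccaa
mt-Nd4l and mt-Nd4, chrM:10155-10185, plus strand: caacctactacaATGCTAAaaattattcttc
mt-Nd5 and mt-Nd6, chrM:13540-13577, plus strand: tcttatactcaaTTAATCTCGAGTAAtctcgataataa

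Libraries held 23650572 to 27680649 estimated counts, and 17739 genes passed the filter on low counts. Ctnnb1, which encodes β-catenin, was at 7.98 to 10.7 CPM (counts scaled to library size, TMM-adjusted, as in all levels given here) in the 4 knock-out libraries and at 813 to 906 CPM in the 4 parental ones. All 10 embryonic stem cell markers were measured, with a summed level of 5543 and 5589 CPM in knock-out cells with CHIR99021, 6058 and 5843 CPM with DMSO, 5866 and 5727 CPM in parental cells with CHIR99021 and 6283 and 6270 CPM with DMSO. The 8 fibroblast markers summed to 17.19 and 15.72 CPM in knock-out cells with CHIR99021, 13.3 and 14.76 CPM with DMSO, 20.41 and 21.95 CPM in parental cells with CHIR99021 and 9.402 and 11.12 CPM with DMSO, with Postn, Lum and Dcn at 0. In parental cells Pdgfrb, named after its values were seen, had 12.95 and 13.63 CPM with CHIR99021 and 4.293 and 5.187 with DMSO. There Thy1 had 5.708 and 6.44 CPM with CHIR99021 and 3.778 and 3.9 with DMSO. Col1a1 overlapped, at 1.532 and 1.756 CPM against 1.245 and 1.909. The 8 germ-layer markers summed to 25.66 and 27.13 CPM in knock-out cells with CHIR99021, 25.24 and 27.39 with DMSO, 28.08 and 27.19 in parental cells with CHIR99021 and 20.53 and 22.52 with DMSO. Of these, T, a mesoderm gene, was at 12.26 and 10.37 CPM in parental cells with CHIR99021 and at 0.03862 to 0.4722 CPM in the other 6 libraries. Gata4, an endoderm gene, was at 10.22 to 11.47 CPM in the 4 knock-out libraries and 4.207 to 5.809 CPM in the 4 parental ones. Sox1 and Pax6 went against the sum in parental cells. Sox1 had 9.079 and 8.823 CPM there with CHIR99021 and 12.54 and 12.95 with DMSO. Pax6 had 0.3065 and 0.6272 CPM with CHIR99021 and 1.588 and 1.909 with DMSO. Over all libraries Gata6 was at 0.2905 to 1.314 CPM and Mixl1 at 0.8586 to 1.254 CPM. The part of these shifts in the results was not tested. Of 31 RNAs that lack a poly(A) tail, parental DMSO replicate 1 was far above the other libraries in these 3, named like the germ-layer genes above after their values were seen: Rn7sk at 13.69 CPM (4.674 to 7.878 in the other 7 libraries) and Rn7s1 and Rn7s2, with identical counts, at 11.42 CPM each (0.9199 to 1.717). The remaining 28 summed to 21.97 CPM in it and to 17.37 to 26.8 CPM in the others. Calls of mitochondrially encoded genes that were lost without it are given with their values.

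All 22 transfer RNAs, 59 to 75 bases long, had a count of 0 in every library, which allows each library's share of counts up to 1.08e-05% to 1.27e-05% (3 counts of its total; counting error only). The 15 other members, the 13 protein-coding genes and both ribosomal RNAs, passed the filter in all groups, and the lowest count behind any value below is 4343, for mt-Nd3 in parental DMSO replicate 1. Members are compared with each other as CPM per kilobase of annotated gene, with no correction for fragment length. The levels spanned 37.1-fold over the 15 genes and 11.4-fold over the 13 messengers.

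Per kilobase, mt-Atp6 was the most abundant, with a mean of 7194 CPM per kilobase over 8 libraries (range 6600 to 7862). It was followed by mt-Co1 at 6202 (5011 to 7219), mt-Co2 at 6143 (5414 to 6869) and mt-Co3 at 5030 CPM per kilobase (4681 to 5549). The neighbours mt-Co1 and mt-Co2 were not separated, mt-Co1 being the higher in 5 of 8 libraries, while mt-Atp6 exceeded mt-Co1 in 7 and mt-Co2 exceeded mt-Co3 in all 8. With the counts of near-identical nuclear copies, described with mt-Nd3, added to their genes, mt-Atp6 averaged 7205 and mt-Co1 6731 CPM per kilobase, and mt-Atp6 exceeded mt-Co1 in 5 of 8.

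A middle group held mt-Nd1 at 2906, mt-Cytb at 2897 and mt-Atp8 at 2691 CPM per kilobase, whose ranges overlapped. Below it, mt-Nd4 at 1852, mt-Nd2 at 1395, mt-Nd4l at 1276 and mt-Nd3 at 898.3 CPM per kilobase kept that order in all 8 libraries as deposited. With copies added mt-Nd3 averaged 1336 CPM per kilobase (1174 to 1526), above mt-Nd4l in 5 of 8 libraries and below mt-Nd2 in 4. The lowest messengers, mt-Nd6 at 652 and mt-Nd5 at 630 CPM per kilobase, differed little, with mt-Nd6 the higher in 7 libraries. In human cells the ND6 messenger is known to carry no long poly(A) tail. The ribosomal RNAs came last, mt-Rnr1 at 257.7 (204.8 to 317.3) and mt-Rnr2 at 193.9 CPM per kilobase (142.8 to 271.8), in libraries made by poly(A) selection.

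The partners on a shared messenger did not have equal levels. Over the 8 libraries mt-Atp8 stayed between 2358 and 3008 CPM per kilobase and mt-Atp6 between 6600 and 7862. For the other pair mt-Nd4l lay between 1116 and 1457 and mt-Nd4 between 1563 and 2170 CPM per kilobase, so the shorter gene of each pair was the lower in every library.

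**Figure D1:**
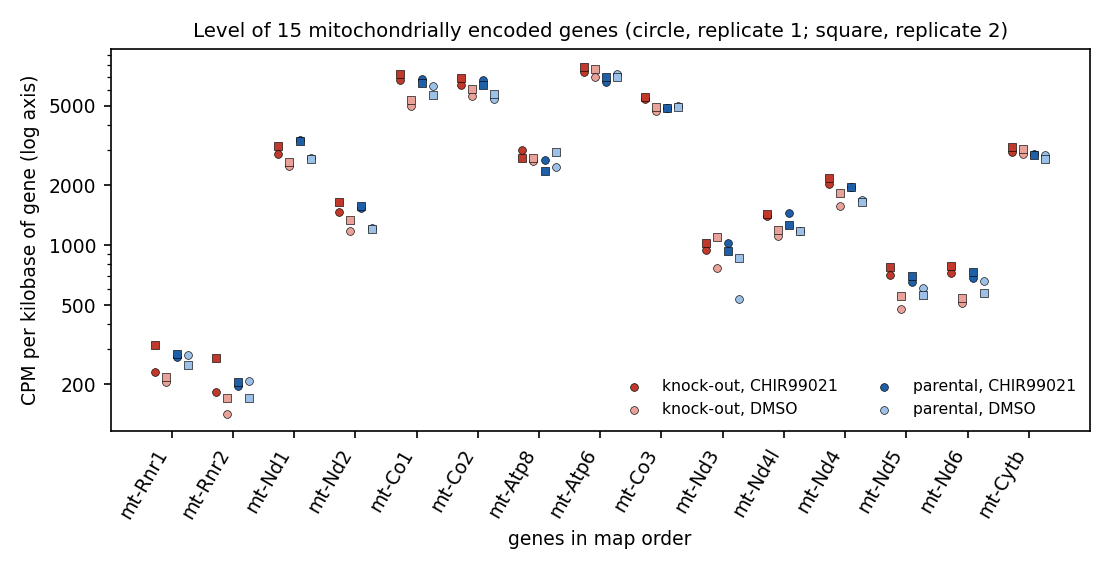
Level of the 15 measured mitochondrially encoded genes in map order, as CPM per kilobase on a log axis, 1 point per library. The cytochrome c oxidase genes and mt-Atp6 lie at the top between 4681 and 7862, and both ribosomal RNAs lie at or below 317.3 in all 8 libraries. Libraries spread from 535.8 to 1093 for mt-Nd3 and from 142.8 to 271.8 for mt-Rnr2.

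As a share of all counts, the mitochondrially encoded genes were higher in CHIR99021 than in DMSO in both lines. They took 3.868% and 4.11% of counts in knock-out cells with CHIR99021, against 3.182% and 3.492% in knock-out cells with DMSO. The shares were 3.743% and 3.656% in parental cells with CHIR99021, against 3.427% and 3.308% in parental cells with DMSO. The 2 treatments did not overlap in either line.

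The mean share was 3.989% ± 0.171 with CHIR99021 and 3.337% ± 0.22 with DMSO in knock-out cells (SD, n = 2 each), a difference of 0.652 percentage points and a ratio of 1.2. In parental cells it was 3.699% ± 0.0609 and 3.367% ± 0.0845 (SD, n = 2 each), a difference of 0.332 points and a ratio of 1.1. Within a line the two-sided exact permutation test over samples gave p = 0.333 in each, which is the smallest p that 2 against 2 allows. With treatment permuted within both lines the mean difference was 0.492 points (exact permutation p = 0.0556, also the smallest possible), and the CHIR99021 libraries were the higher in 4 of 4.

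Between the lines, in CHIR99021 the knock-out share exceeded the parental one by 0.289 points, a ratio of 1.08 (exact permutation p = 0.333, n = 2 each), with no overlap; it was 0.168 points without knock-out CHIR99021 replicate 2. In DMSO the difference was -0.0304 points and the libraries overlapped (exact permutation p = 1, n = 2 each); it was 0.0294 points without parental DMSO replicate 1 and 0.125 without knock-out DMSO replicate 1. The share was nearly all messenger: the ribosomal RNAs took 0.052% and 0.074% of counts in knock-out cells with CHIR99021, 0.0423% and 0.0488% with DMSO, 0.0567% and 0.0589% in parental cells with CHIR99021 and 0.0587% and 0.0504% with DMSO.

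**Figure D2:**
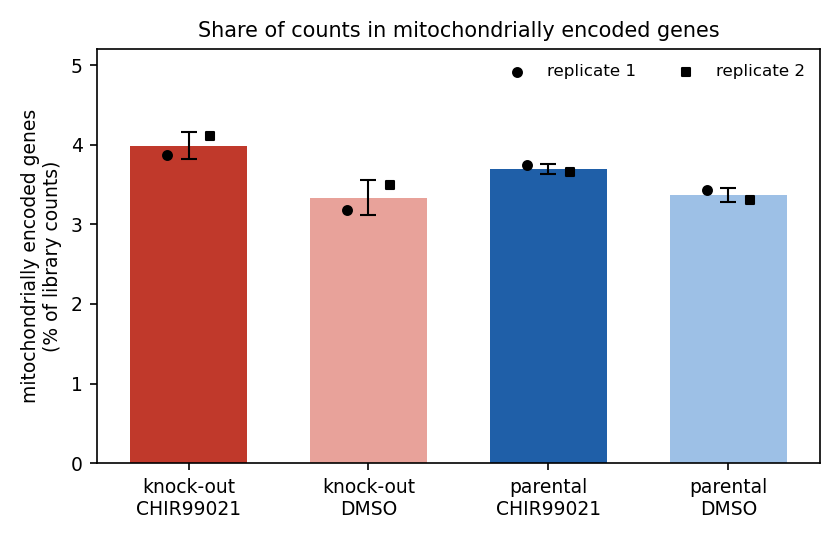
Percent of each library's counts in the 37 mitochondrially encoded genes; bars are group means, error bars SD over 2 libraries, points the libraries. Both lines show the higher share with CHIR99021, 3.989% against 3.337% in knock-out cells and 3.699% against 3.367% in parental cells.

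Gene by gene, 6 of 7 messengers of complex I and 2 of 3 of complex IV rose with CHIR99021 in knock-out cells, led by mt-Nd6, mt-Nd5 and mt-Co1 at 1.43-, 1.43- and 1.35-fold. Of 15 genes tested 8 rose and 0 fell (edgeR quasi-likelihood test, Benjamini-Hochberg over all genes, adjusted p under 0.05), where 2.88% of all genes rose and 4.18% fell in this comparison. The median log2 fold change was 0.29 over the 15 genes and -0.003 over all genes, and 15 of 15 had a positive value. Libraries of the 2 treatments did not overlap for 11 of the 15, all higher with CHIR99021, where 25.4% of all genes were so placed and 26.9% were placed the other way. DESeq2 and limma-voom gave 9 genes each, and the share of all genes they called is not given here. Some of the 8 calls were lost without single libraries, as given with each gene.

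In parental cells 5 of the 15 rose with CHIR99021 and 0 fell, where 9.1% of all genes rose and 10.3% fell. The median log2 fold change was 0.20 against 0.004 over all genes, 12 of 15 being positive. In 9 genes all CHIR99021 libraries were the higher and in 1 the lower, against 29.9% and 29.6% of all genes. Some of the 5 calls were lost without single libraries, as given with each gene. With no filter beyond 1 read the count was 9. At an unadjusted p under 0.05 there were 11 genes in the knock-out, where 23.2% of all genes passed, and 9 in parental cells, where 31.7% did.

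Between the lines in CHIR99021, 2 of the 15 were higher and 1 lower in knock-out than in parental cells, where 11.2% of all genes were higher and 12.5% lower. In DMSO, 0 were higher and 1 lower, where 3.13% of all genes were higher and 3.62% lower (6.75% in either direction). Libraries of the lines did not overlap for 6 genes higher and 1 lower in CHIR99021 (31% and 31.4% of all genes), and for 1 higher and 5 lower in DMSO (24.8% of all genes each way). The response to CHIR99021 differed between the lines in 1 of 15, higher in the knock-out, where 3.22% of all genes differed in that direction and 2.91% in the other (6.13% in all). Leaving out libraries gave 1 gene in CHIR99021 without parental DMSO replicate 1 or parental CHIR99021 replicate 1. In DMSO it gave 0 genes without parental DMSO replicate 1 or knock-out DMSO replicate 1, and 3 without parental DMSO replicate 2. For the difference of the responses it gave 0 without parental DMSO replicate 1, parental CHIR99021 replicate 1 or knock-out CHIR99021 replicate 2, 2 without parental DMSO replicate 2 or knock-out CHIR99021 replicate 1, and 3 without knock-out DMSO replicate 2. With no filter beyond 1 read, 7 genes were higher and 1 lower in CHIR99021, 1 higher and 5 lower in DMSO, and 9 differed in response. The share of all genes is not given here for this setting or with libraries left out. Those counts, and that without a filter for parental cells, are therefore not weighed here. With no filter beyond 1 read mt-Nd3 in parental cells had an edgeR adjusted p of 1.52e-25, against 0.0946 in the main fit. The parental DMSO libraries had 186.4 and 299.3 CPM of mt-Nd3. The 5 comparisons share libraries, so their counts are not separate.

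**Figure D3:**
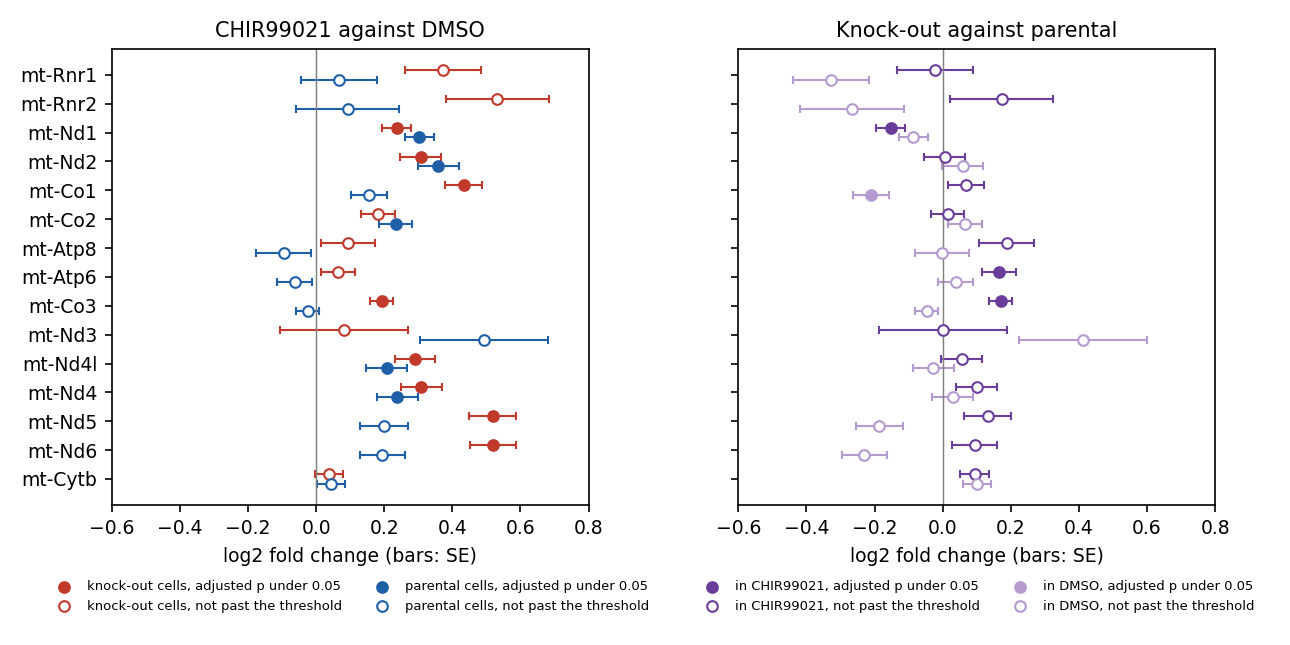
log2 fold changes with SE of the 15 genes, for CHIR99021 against DMSO in each line on the left and for knock-out against parental cells in each treatment on the right; filled points have an adjusted p under 0.05. On the left most points lie above 0, up to 0.53 for mt-Rnr2 in knock-out cells, which did not pass.

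Complex I takes electrons from NADH, and its 7 mitochondrial subunits form the proton-pumping membrane arm. mt-Nd1 (2751 to 3707) had 2748 and 3014 CPM in knock-out cells with CHIR99021, 2400 and 2491 with DMSO, 3230 and 3173 in parental cells with CHIR99021, and 2617 and 2574 with DMSO. CHIR99021 libraries were the higher in both lines, and in CHIR99021 the parental level was the higher. mt-Nd1 rose with CHIR99021 by 0.24 ± 0.0432 (log2, SE; edgeR adjusted p = 0.0101) in knock-out cells and by 0.30 ± 0.0433 (adjusted p = 0.000514) in parental cells. It was 0.15 lower in knock-out than in parental cells in CHIR99021 (log2 fold change -0.15 ± 0.0432, adjusted p = 0.0258), with no pass in DMSO (-0.09 ± 0.0432, adjusted p = 0.29).

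Without single libraries some of these mt-Nd1 calls were lost. The knock-out response had adjusted p = 0.0722 without knock-out DMSO replicate 1 and 0.0889 without knock-out CHIR99021 replicate 2. The difference between lines in CHIR99021 had adjusted p = 0.0557 without parental DMSO replicate 1, 0.116 with parental CHIR99021 replicate 1 left out and 0.0544 with its partner left out. It was 0.222 without knock-out CHIR99021 replicate 1, where the log2 fold change was -0.09. It also failed with library totals unscaled (adjusted p = 0.065) and with a filter of 5 CPM in 2 libraries (0.0539).

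mt-Nd2 (3914 to 4951) showed the largest called fold change in parental cells. It had 1530 and 1707 CPM in knock-out cells with CHIR99021, 1226 and 1391 with DMSO, 1600 and 1622 in parental cells with CHIR99021, and 1259 and 1254 with DMSO. Treatments did not overlap in either line, and the lines overlapped. The rise was 0.31 ± 0.0601 (log2, adjusted p = 0.0133) in knock-out cells and 0.36 ± 0.0602 (adjusted p = 0.00158) in parental cells by edgeR. The call in knock-out cells was lost without knock-out DMSO replicate 1 (0.0948) or knock-out CHIR99021 replicate 2 (0.128).

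mt-Nd4 (10167 to 11544) and mt-Nd4l (9877 to 10173), which share a messenger, rose in both lines. mt-Nd4 had 2794 and 2990 CPM in knock-out cells with CHIR99021, 2154 and 2514 with DMSO, 2706 and 2690 in parental cells with CHIR99021, and 2315 and 2258 with DMSO. mt-Nd4l had 414.4 and 424.7 CPM in knock-out cells with CHIR99021, 331.4 and 354.6 with DMSO, 432.9 and 374.5 in parental cells with CHIR99021, and 350.2 and 349 with DMSO. In both genes each CHIR99021 library stood above each DMSO library of its line. By edgeR mt-Nd4 rose by 0.31 ± 0.0604 (log2, adjusted p = 0.0133) in knock-out and by 0.24 ± 0.0604 (adjusted p = 0.018) in parental cells, and mt-Nd4l by 0.29 ± 0.0599 (adjusted p = 0.0171) in knock-out and by 0.21 ± 0.0601 (adjusted p = 0.0328) in parental cells.

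These 4 calls rested on single libraries. In knock-out cells mt-Nd4 lost it without knock-out CHIR99021 replicate 2 (adjusted p = 0.124), and mt-Nd4l without that library (0.121), without knock-out CHIR99021 replicate 1 (0.0808) or without knock-out DMSO replicate 1 (0.15). In parental cells mt-Nd4 lost it without parental DMSO replicate 1 (0.0744), DMSO replicate 2 (0.106), CHIR99021 replicate 1 (0.0754) or CHIR99021 replicate 2 (0.0597). mt-Nd4l in parental cells lost it without parental DMSO replicate 1 (0.133) or 2 (0.129), without parental CHIR99021 replicate 1 (0.255, with a log2 fold change of 0.10), and without knock-out CHIR99021 replicate 1 (0.0514) or 2 (0.0562).

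mt-Nd5 (11742 to 13565) and mt-Nd6 (13552 to 14070), neighbours on opposite strands, had the largest called fold changes in knock-out cells. mt-Nd5 had 1288 and 1412 CPM in knock-out cells with CHIR99021, 874.7 and 1010 with DMSO, 1185 and 1278 in parental cells with CHIR99021, and 1114 and 1031 with DMSO. mt-Nd6 had 377.8 and 406.2 CPM in knock-out cells with CHIR99021, 264.6 and 282.3 with DMSO, 353.6 and 380.7 in parental cells with CHIR99021, and 343.1 and 298.5 with DMSO. For both genes the knock-out DMSO libraries were the lowest of the 8. In knock-out cells mt-Nd5 rose by 0.52 ± 0.0697 (log2, edgeR adjusted p = 0.0018) and mt-Nd6 by 0.52 ± 0.0663 (adjusted p = 0.00149).

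In parental cells neither passed, with 0.20 ± 0.0696 (adjusted p = 0.0683) for mt-Nd5 and 0.19 ± 0.0663 (adjusted p = 0.0632) for mt-Nd6, though the treatments did not overlap. The parental rise of mt-Nd5 passed in a fit of the compared groups alone (0.0228) and with the replicate number as a block (0.0447). That of mt-Nd6 passed under a filter of 5 CPM in 2 libraries (0.047). Without parental DMSO replicate 1, at 343.1 CPM against 298.5 in its partner, the parental log2 fold change of mt-Nd6 was 0.296. The value without the partner is not given here. The test of the difference between the responses of the lines did not pass, with 0.32 ± 0.0984 (edgeR adjusted p = 0.0884) for mt-Nd5 and 0.32 ± 0.0936 (adjusted p = 0.0694) for mt-Nd6. It passed for mt-Nd6 without parental DMSO replicate 2 (0.0208) and under a filter of 5 CPM in 2 libraries (0.0433), and for mt-Nd5 without knock-out DMSO replicate 2 (0.0196). The strand setting of the authors' counting is not given in the sources used here, so reads of the 2 strands across mt-Nd6 cannot be told apart.

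mt-Nd3 (9459 to 9806), another membrane-arm subunit, had the largest SE of the 13 messengers (0.187 to 0.189 on the log2 scale within a line or treatment). It had 328.9 and 355.6 CPM in knock-out cells with CHIR99021, 266.2 and 380.5 with DMSO, 356.9 and 326.9 in parental cells with CHIR99021, and 186.4 and 299.3 with DMSO. Replicates in DMSO lay far apart in both lines, and no comparison passed as deposited (edgeR adjusted p 0.0946 to 0.997).

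Cytochrome b, the mitochondrial subunit of complex III, carries the sites where the complex handles quinones. Its gene mt-Cytb (14145 to 15288) had 3368 and 3572 CPM in knock-out cells with CHIR99021, 3276 and 3485 with DMSO, 3281 and 3222 in parental cells with CHIR99021, and 3226 and 3081 with DMSO. The treatments overlapped in both lines, while knock-out libraries stood above parental ones in each treatment. CHIR99021 gave 0.04 ± 0.0421 (log2, edgeR adjusted p = 0.652) in knock-out and 0.04 ± 0.0421 (adjusted p = 0.522) in parental cells. Knock-out against parental cells gave 0.09 ± 0.0421 (adjusted p = 0.137) in CHIR99021 and 0.10 ± 0.0421 (adjusted p = 0.198) in DMSO, and the first passed with library totals unscaled (0.0439).

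Complex IV reduces oxygen, and its 3 mitochondrial subunits hold the catalytic core and its surroundings. mt-Co1 (5328 to 6872), which encodes the subunit with the oxygen-binding site, had 10430 and 11150 CPM in knock-out cells with CHIR99021, 7742 and 8240 with DMSO, 10590 and 10010 in parental cells with CHIR99021, and 9719 and 8771 with DMSO. The knock-out DMSO libraries were the lowest of all and the 2 CHIR99021 groups overlapped. In parental cells CHIR99021 gave 0.16 ± 0.0535 for mt-Co1 (log2, edgeR adjusted p = 0.0658), which passed with limma-voom (0.0478). Without parental DMSO replicate 1, the higher library of its group, this parental value was 0.229. The value without replicate 2, the lower library, is not given here. In knock-out cells mt-Co1 rose by 0.43 ± 0.0536 with CHIR99021 (log2, edgeR adjusted p = 0.00132), 1.35-fold. The test of the difference between these responses gave 0.28 ± 0.0757 (adjusted p = 0.0555), with 0.0463 under a filter of 5 CPM in 2 libraries, 0.0412 with limma-voom, 0.0318 without parental DMSO replicate 2 and 0.0409 without knock-out DMSO replicate 2.

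In DMSO mt-Co1 was lower in knock-out than in parental cells, at -0.21 ± 0.0535 (log2, edgeR adjusted p = 0.0408). This call was lost under 11 of 19 alternatives, among them DESeq2 (0.0836), library totals unscaled (0.0758), and leaving out parental DMSO replicate 1 (0.347, with a log2 fold change of -0.13), knock-out DMSO replicate 1 (0.197) or 2 (0.0514), or knock-out CHIR99021 replicate 1 (0.056) or 2 (0.0524). In CHIR99021 the lines gave 0.07 ± 0.0535 (adjusted p = 0.403).

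mt-Co2 (7013 to 7696), which encodes the subunit that receives electrons from cytochrome c, had 4354 and 4699 CPM in knock-out cells with CHIR99021, 3847 and 4130 with DMSO, 4608 and 4354 in parental cells with CHIR99021, and 3703 and 3921 with DMSO. Treatments did not overlap in either line, and the lines overlapped in each treatment. In knock-out cells the difference was 0.18 ± 0.0498 (log2, edgeR adjusted p = 0.0522), which passed with DESeq2 (0.00272), limma-voom (0.0356) and library totals unscaled (0.0482). In parental cells mt-Co2 rose by 0.23 ± 0.0498 (adjusted p = 0.00698), a call lost without parental DMSO replicate 1 (0.0951) or parental CHIR99021 replicate 1 (0.0558).

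mt-Co3 (8607 to 9390) was the 1 gene of 15 that passed the test of the difference between responses. That is near the 6.13% of all genes that passed it in either direction. Larger differences, such as those of mt-Nd5, mt-Nd6 and mt-Co1, did not pass. mt-Co3 had 4250 and 4351 CPM in knock-out cells with CHIR99021, 3670 and 3856 with DMSO, 3813 and 3833 in parental cells with CHIR99021, and 3930 and 3847 with DMSO. The knock-out libraries with CHIR99021 stood above all 6 others, which lay close together. mt-Co3 rose by 0.19 ± 0.0341 in knock-out cells (log2, edgeR adjusted p = 0.00861), against -0.02 ± 0.0341 in parental cells (adjusted p = 0.676), and the difference of the responses was 0.22 ± 0.0482 (adjusted p = 0.0226). In CHIR99021 it was higher in knock-out than in parental cells by 0.17 ± 0.0341 (adjusted p = 0.0043), and in DMSO the value was -0.05 ± 0.0341 (adjusted p = 0.479).

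The difference between lines in CHIR99021 passed under all 19 alternatives run (largest adjusted p = 0.0417). The difference of the mt-Co3 responses was lost without parental DMSO replicate 1 (0.13) or 2 (0.0746), parental CHIR99021 replicate 1 (0.0567), or knock-out CHIR99021 replicate 1 (0.0583) or 2 (0.097). The knock-out response was lost without knock-out CHIR99021 replicate 1 (0.052) or 2 (0.0858).

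Complex V makes ATP, and its mitochondrial subunits belong to the membrane part through which protons flow. mt-Atp6 (7927 to 8607) had 5015 and 5354 CPM in knock-out cells with CHIR99021, 4726 and 5192 with DMSO, 4494 and 4752 in parental cells with CHIR99021, and 4936 and 4723 with DMSO. The treatments overlapped in both lines, giving 0.06 ± 0.0505 (log2, edgeR adjusted p = 0.494) in knock-out and -0.06 ± 0.0505 (adjusted p = 0.437) in parental cells. In CHIR99021 it was higher in knock-out than in parental cells by 0.17 ± 0.0505 (adjusted p = 0.0359), a call lost without parental DMSO replicate 1 (0.05) or 2 (0.0534), parental CHIR99021 replicate 1 (0.195) or knock-out CHIR99021 replicate 2 (0.238).

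mt-Atp8 (7766 to 7969), on the same messenger, had 613.7 and 556.7 CPM in knock-out cells with CHIR99021, 537.7 and 558.6 with DMSO, 546.5 and 481.1 in parental cells with CHIR99021, and 502.2 and 595.6 with DMSO. The treatments overlapped in both lines and no comparison passed (edgeR adjusted p 0.118 to 0.992).

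The ribosomal RNAs of the mitochondrial ribosome passed no test. mt-Rnr1 (70 to 1024), of the small subunit, had 221.1 and 303 CPM in knock-out cells with CHIR99021, 195.5 and 209 with DMSO, 261.8 and 270.5 in parental cells with CHIR99021, and 267.5 and 240.3 with DMSO. mt-Rnr2 (1094 to 2675), of the large subunit, had 289.9 and 430 CPM in knock-out cells with CHIR99021, 226 and 271.6 with DMSO, 310.8 and 327.4 in parental cells with CHIR99021, and 328.6 and 270.1 with DMSO. For both the top library was knock-out CHIR99021 replicate 2, well above its partner. In knock-out cells CHIR99021 gave 0.37 ± 0.111 (log2, edgeR adjusted p = 0.0702) for mt-Rnr1 and 0.53 ± 0.152 (adjusted p = 0.062) for mt-Rnr2. Without knock-out CHIR99021 replicate 1 the values were 0.58 and 0.79, resting on the high library alone. The library left out had 221.1 CPM of mt-Rnr1, beside 195.5 and 209 with DMSO. It had 289.9 CPM of mt-Rnr2, beside 226 and 271.6 with DMSO. Parental cells gave 0.07 ± 0.111 (adjusted p = 0.728) for mt-Rnr1 and 0.09 ± 0.152 (adjusted p = 0.732) for mt-Rnr2. In DMSO mt-Rnr1 was lower in both knock-out libraries than in both parental ones, at -0.33 ± 0.111 (adjusted p = 0.116), with adjusted p = 0.0119 when knock-out CHIR99021 replicate 1 was left out and 0.012 when its partner was.

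The genes' shares among mitochondrial messengers also differed between groups; these shares are descriptive and were not tested. mt-Co1 made up 27.81% and 27.89% of the counts of the 13 messengers in knock-out cells with CHIR99021, 24.72% and 24.32% with DMSO, 28.46% and 27.42% in parental cells with CHIR99021 and 28.42% and 26.58% with DMSO. The knock-out with DMSO was set apart by its low value, and the parental groups overlapped. mt-Atp6 had 13.37% and 13.39% in knock-out cells with CHIR99021, 15.09% and 15.32% with DMSO, 12.08% and 13.02% in parental cells with CHIR99021 and 14.43% and 14.31% with DMSO, lower with CHIR99021 in both lines.

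mt-Cytb was likewise lower with CHIR99021 in both lines, at 8.979% and 8.931% in knock-out cells with CHIR99021, 10.46% and 10.28% with DMSO, 8.822% and 8.829% in parental cells with CHIR99021 and 9.432% and 9.335% with DMSO. mt-Nd1 had 7.325% and 7.536% in knock-out cells with CHIR99021, 7.663% and 7.352% with DMSO, 8.685% and 8.695% in parental cells with CHIR99021 and 7.651% and 7.799% with DMSO, so that parental cells with CHIR99021 stood above the rest. By complex, the 7 genes of complex I held 25.27% and 25.78% in knock-out cells with CHIR99021, 24% and 24.86% with DMSO, 26.52% and 26.98% in parental cells with CHIR99021 and 23.93% and 24.43% with DMSO. Both genes of complex V together held 15% and 14.78% in knock-out cells with CHIR99021, 16.81% and 16.97% with DMSO, 13.55% and 14.34% in parental cells with CHIR99021 and 15.9% and 16.12% with DMSO. In these values with CHIR99021 complex I had the larger and complex V the smaller share in each line.

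**Figure D4:**
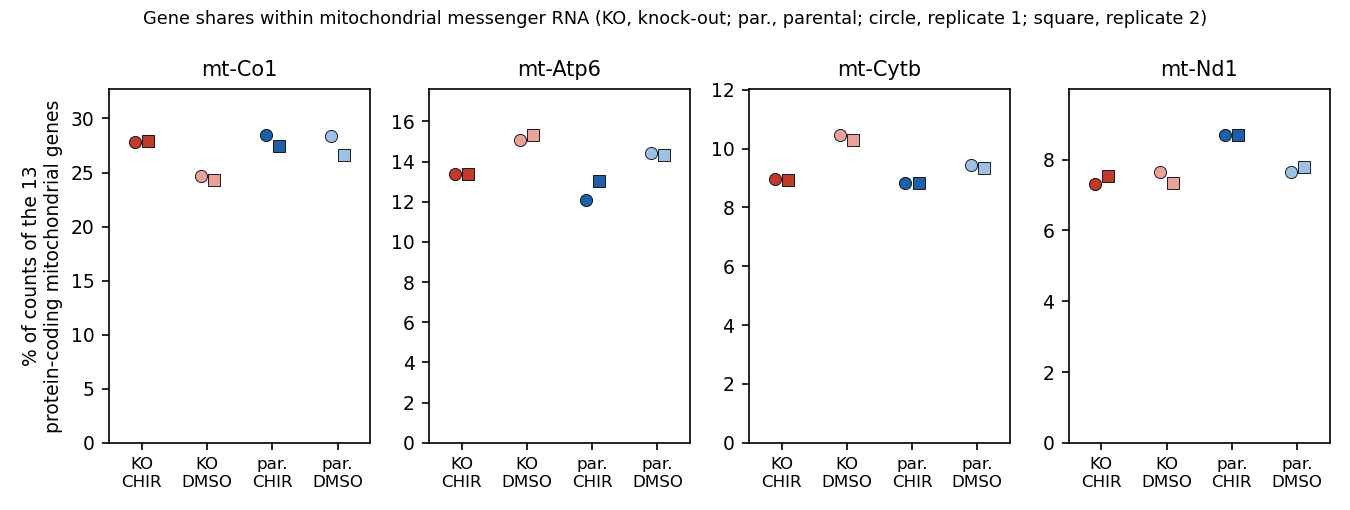
Share of mt-Co1, mt-Atp6, mt-Cytb and mt-Nd1 in the counts of the 13 protein-coding mitochondrial genes, 1 point per library, each axis from 0. mt-Atp6 and mt-Cytb are lower with CHIR99021 in both lines, mt-Co1 is low in knock-out cells with DMSO (24.32% and 24.72%), and mt-Nd1 is high in parental cells with CHIR99021.

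The nuclear genome holds copies of mitochondrial DNA, and 11 annotated nuclear genes matched the mitochondrial chromosome at 95% identity or more over at least 80% of their length. Of these, 7 lie in 1 stretch of chromosome 1 (24611535 to 24616197, minus strand), 3 lie on chromosome 2 within the span of Myo3a on its opposite strand, and 1, Gm4076, lies on chromosome 13. The copies of mt-Nd4, mt-Nd4l, mt-Co3, mt-Atp6 and mt-Co2 on chromosome 1 had 0 differences from their genes over the bases compared, and Gm28438 differed from mt-Nd3 at 1 base. That base is T3C, counted from the first base of the gene (the mitochondrial base first), in capitals in the first 15 bases of each.
mt-Nd3, chrM:9459-9473, plus strand: atTaacctgtacact
Gm28438, chr1:24613105-24613119, minus strand: atCaacctgtacact

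Counts were assigned to these copies unevenly. Of the counts of mt-Nd3 and Gm28438 together, the copy held 36.9% and 33% in knock-out cells with CHIR99021, 40.2% and 20.9% with DMSO, 21.8% and 25.2% in parental cells with CHIR99021 and 54.4% and 31.7% with DMSO. The share was highest in parental DMSO replicate 1, where mt-Nd3 itself was lowest. Copies of mt-Co1, of which Gm29216 held 15839 to 26962 counts and Gm13340 54.48 to 87.35, took 6.93% to 9.02% in all libraries. Gm29216, 492 bases long, begins at base 1054 of mt-Co1. It differed from mt-Co1 at 6 bases, all near its start, from T1056A to A1066T. For mt-Co2 the copies held 2.73% and 1.61% in knock-out cells with CHIR99021, 0.679% and 0.637% with DMSO, 1.07% and 1.27% in parental cells with CHIR99021 and 8.42% and 0.304% with DMSO, again highest in parental DMSO replicate 1.

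With the counts of copies added to their genes, the SE of the mt-Nd3 fold changes was 0.0482 to 0.0484 on the log2 scale within a line or treatment. The summed mt-Nd3 had 521.6 and 531.2 CPM in knock-out cells with CHIR99021, 445.2 and 480.8 with DMSO, 456.2 and 437.1 in parental cells with CHIR99021 and 408.7 and 438.1 with DMSO. The knock-out libraries with CHIR99021 stood above all others. The summed mt-Nd3 rose by 0.19 ± 0.0482 with CHIR99021 in knock-out cells (log2, edgeR adjusted p = 0.0422), against 0.08 ± 0.0484 in parental cells (adjusted p = 0.311), and in CHIR99021 it was higher in knock-out than in parental cells by 0.24 ± 0.0482 (adjusted p = 0.00449). The difference between the responses did not pass (0.11 ± 0.0683, adjusted p = 0.41).

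Adding copies also moved the neighbouring calls. It gave 10 higher and 0 lower of 15 for CHIR99021 in knock-out cells, 5 and 0 in parental cells, 3 and 1 for knock-out against parental cells in CHIR99021 and 0 and 0 in DMSO, with 7.1%, 19.4%, 23.7% and 6.77% of all genes called in either direction. The summed mt-Co2 passed in knock-out cells at 0.20 ± 0.0466 (log2, edgeR adjusted p = 0.0251) and in parental cells at 0.19 ± 0.0466 (adjusted p = 0.0172). The summed mt-Co1 no longer passed between the lines in DMSO (-0.21 ± 0.0576, adjusted p = 0.0515).

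**Figure D5:**
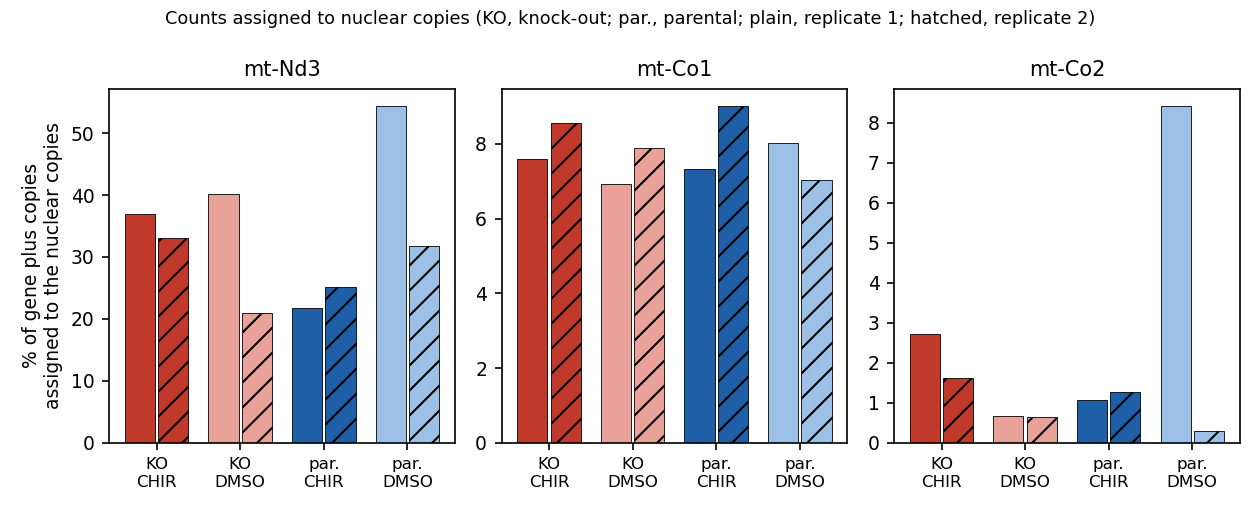
Percent of the counts of a mitochondrial gene and its nuclear copies that was assigned to the copies, for mt-Nd3, mt-Co1 and mt-Co2, 1 bar per library, each axis from 0. For mt-Nd3 the share runs from 20.9% to 54.4%, for mt-Co1 it stays between 6.93% and 9.02%, and for mt-Co2 parental DMSO replicate 1 stands out at 8.42%.

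Nuclear genes that act on these RNAs were read from the same tests, where CHIR99021 gave 2.88% of all genes higher and 4.18% lower in knock-out cells and 9.1% higher and 10.3% lower in parental cells. For the 19 measured genes of mitochondrial transcription and the nucleoid, CHIR99021 gave 0 higher and 2 lower in knock-out cells (median log2 fold change -0.09) and 1 higher and 0 lower in parental cells (-0.03), beside medians of -0.003 in knock-out and 0.004 in parental cells over all genes. Polrmt, the polymerase, had 52.17 and 48.23 CPM in knock-out cells with CHIR99021, 55.32 and 53.33 with DMSO, 53.63 and 51.85 in parental cells with CHIR99021, and 51 and 52.9 with DMSO. Tfam had 89.93 and 92.37 CPM in knock-out cells with CHIR99021, 98.1 and 102.8 with DMSO, 89.19 and 94.5 in parental cells with CHIR99021, and 104.7 and 98.92 with DMSO. Each Tfam library with CHIR99021 was below each DMSO library of its line, with log2 fold changes of -0.14 ± 0.0485 (edgeR adjusted p = 0.111) in knock-out and -0.15 ± 0.0489 (adjusted p = 0.0553) in parental cells, neither past the threshold. Mrpl12, a ribosomal protein also found with the polymerase, fell in knock-out cells by 0.23 on the log2 scale (adjusted p = 0.0153).

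Among 25 measured genes of RNA processing, polyadenylation and decay, CHIR99021 gave 0 higher and 3 lower in knock-out cells and 4 higher and 4 lower in parental cells, where 7.06% of all genes in knock-out and 19.4% in parental cells passed in either direction. The largest change was in Grsf1, an RNA-binding protein of mitochondrial RNA granules, with 47.24 and 48.04 CPM in knock-out cells with CHIR99021, 46.95 and 47.8 with DMSO, 93.21 and 96.76 in parental cells with CHIR99021, and 50.19 and 52.03 with DMSO. The parental libraries with CHIR99021 stood far above the other 6. Grsf1 rose by 0.89 ± 0.0469 in parental cells (log2, edgeR adjusted p = 2.79e-07) and the response differed between the lines by -0.89 ± 0.0671 (adjusted p = 1.99e-05). Lrpprc, which keeps mitochondrial messengers stable, and Mtpap passed in no comparison (adjusted p 0.0898 to 0.556 for Lrpprc and 0.324 to 0.915 for Mtpap). In knock-out cells Elac2, which cuts the 3′ ends of transfer RNAs, fell by 0.28, the oligoribonuclease gene Rexo2 by 0.21 and Tbrg4, of the FASTK family, by 0.19 on the log2 scale (adjusted p 0.0191 to 0.0417).

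Knock-out against parental cells in CHIR99021 gave 2 higher and 5 lower of these 25, 0 and 3 of the 19 transcription genes, 0 and 5 of 19 genes of ribosomal and transfer RNA modification, and 0 and 5 of 15 translation and membrane-insertion factors, beside 11.2% of all genes higher and 12.5% lower. Examples were Pus1, a pseudouridine synthase, at -0.38 ± 0.0638 (log2, edgeR adjusted p = 0.00139), and Gfm1, an elongation factor, at -0.33 ± 0.0409 (adjusted p = 0.000197). For CHIR99021 against DMSO the modification list gave 0 and 0 in knock-out and 2 and 0 in parental cells, and the translation list 1 and 0 in knock-out and 2 and 1 in parental cells, beside 2.88% of all genes higher and 4.18% lower in knock-out and 9.1% and 10.3% in parental cells.

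The 15 tested regulators of mitochondrial biogenesis gave 1 higher and 2 lower with CHIR99021 in knock-out cells and 1 higher and 3 lower in parental cells, beside 7.06% and 19.4% of all genes called in either direction in knock-out and in parental cells. Sirt1, a deacetylase gene, fell in parental cells by 0.39 on the log2 scale (edgeR adjusted p = 0.000416), and its response differed between the lines by 0.47 ± 0.0763 (adjusted p = 0.0039). Ppargc1b was at 4.234 to 5.019 CPM in all 8 libraries and passed in no comparison (adjusted p 0.848 to 0.97), and Nrf1 was lower in knock-out than in parental cells in CHIR99021 (-0.21 ± 0.0527, adjusted p = 0.0147). Of 10 mitophagy genes 0 rose and 2 fell in knock-out cells and 2 rose and 2 fell in parental cells, where 4.18% of all genes fell in knock-out cells, and 9.1% rose and 10.3% fell in parental cells. Bnip3, a mitophagy receptor of the outer membrane, fell in both lines, by 0.72 on the log2 scale in knock-out (adjusted p = 0.0259) and by 0.75 in parental cells (adjusted p = 0.0088).

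A chosen list of 48 nuclear genes of complexes I to V was read as well. It held only 7 core subunits of complex I, beside 4 genes of complex II, 9 of III, 12 of IV and 16 of V. The list gave 1 higher and 0 lower with CHIR99021 in knock-out cells, with a median log2 fold change of -0.02, and 7 higher and 0 lower in parental cells, with a median of 0.07, where 2.88% of all genes in knock-out and 9.1% in parental cells were higher. Between the lines in CHIR99021, 1 was higher and 18 lower in the knock-out (median -0.09), where 11.2% of all genes were higher and 12.5% lower, among them 7 of 9 nuclear genes of complex III such as Uqcrc1 at -0.23 ± 0.0435 (log2, edgeR adjusted p = 0.00334), where the 15 mitochondrial genes had a median of 0.09. A difference between the 2 sets of genes was not tested.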

How the data were processed

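RNA from 8 libraries was sequenced from total RNA with a poly(A)-selecting stranded kit, per the labels' protocols. The authors deposited estimated counts per gene, made with kallisto on GRCm38.p4 per the submitters' processing notes; the transcript set and strand setting are not given in the sources used here. Between 36.9% and 38.4% of a library's gene counts were not whole, and counts were rounded for tests. Genes were filtered with filterByExpr (10 counts, 15 in total), scaled by TMM and tested in 1 fit over the 4 groups with edgeR 4.0.16 (quasi-likelihood, 4 residual degrees of freedom; R 4.3.3), with Benjamini-Hochberg adjustment over 17739 genes. Library shares used exact permutation tests. DESeq2 1.42.0 and limma 3.58.1 (voom) were alternatives. Nuclear copies were found with blastn 2.17.0. Scripts were tested on simulated data. The members, gene lists and rule for named genes were chosen with earlier results of these data known. Every measured member was named. From the lists, the rule allowed 6 preset genes in all. It also allowed up to 3 called genes per list and comparison, those with the smallest adjusted p. Replicates of a group differed by more than sampling noise (chi-square per degree of freedom 3.232 to 4.732).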

Additional observations from a re-analysis of the deposited data

Results flagged for a closer look

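The response of mt-Co3 to CHIR99021 passed the test of the difference between the lines. It was 1 of 15 genes, near the 6.13% of all genes that passed in either direction. The log2 fold change was 0.19 in knock-out cells and -0.02 in parental cells, and the difference was 0.22 ± 0.0482 (SE; edgeR quasi-likelihood test, adjusted p = 0.0226), with adjusted p between 0.0567 and 0.13 without each of 5 single libraries.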

How the results depend on the processing

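Over 75 gene results and 1410 alternatives, 44 values changed sign, none of them a called one, 56 calls were lost and 70 gained; causes were not tested. Counts of the 15 genes called (CHIR99021 in knock-out and in parental cells 8 and 5, knock-out against parental cells in CHIR99021 and DMSO 3 and 1, difference of responses 1) moved as follows. Without library scaling by TMM, under 5 CPM in 2 libraries, with DESeq2 and with nuclear copies added, the lines differed in 0 genes in DMSO. With no filter beyond 1 read, parental cells gave 9, the lines differed in 8 in CHIR99021 and 6 in DMSO, and the responses in 9. The share of all genes called is given above for nuclear copies added. For the other settings of this paragraph it is not given here, so their counts are not weighed. The responses differed in 3 under 5 CPM and in 2 with limma-voom. At an adjusted p under 0.01 the counts were 4, 3, 1, 0 and 0. Leaving out libraries in turn gave 3 to 9, 2 to 7, 1 to 3, 0 to 3 and 0 to 3. With the title's replicate number as a replicate block they were 10, 7, 3, 1 and 1; deviations of equal numbers correlated at -0.056 to 0.104, so the numbers were not taken to pair samples, and the block moved no count past 1.5 times.

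Leaving out libraries, the share differed by 0.496 to 0.807 points for CHIR99021 in knock-out cells, 0.272 to 0.392 in parental cells and 0.414 to 0.57 in both, and between lines by 0.168 to 0.41 in CHIR99021, -0.186 to 0.125 in DMSO and 0.0518 to 0.207 in both treatments. The last was -0.00193 for the 2 ribosomal RNAs alone. Transfer RNAs alone gave no value.

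The sign changes were in values past no threshold. In log2 units, leaving out libraries gave, for CHIR99021 in knock-out cells, -0.003 to 0.137 for mt-Atp6, -0.154 to 0.366 for mt-Nd3 and -0.007 to 0.086 for mt-Cytb. In parental cells it gave -0.007 to 0.145 for mt-Rnr1, -0.043 to 0.238 for mt-Rnr2 and -0.215 to 0.033 for mt-Atp8. For knock-out against parental cells in CHIR99021 it gave -0.263 to 0.186 for mt-Rnr1, -0.135 to 0.429 for mt-Rnr2, -0.071 to 0.082 for mt-Nd2, -0.038 to 0.067 for mt-Co2, -0.062 to 0.067 for mt-Nd3 and -0.047 to 0.165 for mt-Nd4l. In DMSO it gave -0.035 to 0.147 for mt-Nd2, -0.119 to 0.126 for mt-Atp8, -0.031 to 0.105 for mt-Atp6, -0.085 to 0.137 for mt-Nd4 and -0.077 to 0.021 for mt-Nd4l. For the difference of responses it gave -0.142 to 0.041 for mt-Nd2, -0.102 to 0.001 for mt-Co2, -0.038 to 0.185 for mt-Nd4, -0.052 to 0.038 for mt-Cytb and -0.019 to 0.192 for mt-Nd4l.

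Other settings turned mt-Atp8 in DMSO to 0.032 without TMM, 0.01 under 5 CPM and 0.002 with limma-voom, mt-Nd4l in DMSO to 0.007 without TMM, and mt-Rnr1 in CHIR99021 to 0.012 without TMM and 0.002 under 5 CPM. mt-Nd3 in CHIR99021 was -0.002 without a filter and -0.01 with the replicate block. For the difference of responses mt-Cytb was 0.006 under 5 CPM, and with copies added mt-Co2 was 0.02 and mt-Nd3 0.108. With 2 libraries a group, permutation tests cannot pass 0.05; depth limits these genes little, the lowest count of a tested member being 4343.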
